A study of Mus musculus with 26 samples.

Results

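IGHV1-18, IGHV1-22 and IGHV1-39 are 3 heavy-chain variable (V) genes of the large IGHV1 family, chosen because earlier results from the same samples had placed them low in skin. They are 3 of 188 V genes named in the tables, and every sequence assigned to any of them was taken. Together they made up 83161 of 1674869 clonotypes (4.97%), where a clonotype is a V gene, a joining (J) gene and a junction nucleotide sequence within 1 replicate. Of these, 49 came from skin, 53831 from spleen, 22287 from lymph node and 6994 from a positive control.

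Heavy-chain repertoires had been sequenced in bulk from wild-type (WT) mice associated with S. epidermidis, a bacterium of the normal skin flora. Skin, spleen and lymph node had 4 biological replicates each with 2 technical libraries, which were added together here. All tissue samples carry the same association, so the comparisons are between tissues and no unassociated animal was compared. The labels call the sequenced cells B cells. Their tissue field reads ear skin throughout, while titles name skin, spleen or lymph node, so the titles set the tissue here. The positive control, 1 sample with 2 technical libraries, is labelled as WT B cells with no tissue and no association. Its strain and origin are not stated.

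An antibody heavy chain is assembled in each developing B cell from 1 V, 1 D and 1 J segment, and the junction of the 3 encodes the third complementarity-determining region (CDR3), the most variable part of the binding site. The cell first uses the IgM and IgD constant regions and can later switch to IgG, IgE or IgA, the class secreted at body surfaces. In germinal centres the V region gathers point mutations, so mismatches to the germline V gene mark cells with such a history, and sets of cells with near-identical junctions mark clonal descent. In bulk sequencing of RNA, fewer cells using a V gene and less RNA per cell cannot be told apart in a share of copies.

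The 3 genes lie on chromosome 12 in the order of their numbers. In the RefSeq annotation of GRCm38.p6, the build that the submitters' processing notes name mm10, each is a V segment of 294 bases: IGHV1-18 at chr12:114682632-114682925, IGHV1-22 at chr12:114746273-114746566 and IGHV1-39 at chr12:114914599-114914892. The table lists 3 V segments between IGHV1-18 and IGHV1-22 and 7 between IGHV1-22 and IGHV1-39. The libraries read the last 144 bases of the V segment, from CDR2 to the first bases of the junction. The 3 sequences below are shown because they carry the whole basis on which a read was assigned to 1 of the 3 genes. They were read from deposited tissue sequences without a V mismatch (20505, 17334 and 5393 sequences), and capitals mark the positions where the 3 differ. All of those sequences held the window shown for their gene, which largely follows from taking only sequences without a mismatch.
IGHV1-18: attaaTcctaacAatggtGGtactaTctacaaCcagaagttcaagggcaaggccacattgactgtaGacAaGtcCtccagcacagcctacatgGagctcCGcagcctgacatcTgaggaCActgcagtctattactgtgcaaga
IGHV1-22: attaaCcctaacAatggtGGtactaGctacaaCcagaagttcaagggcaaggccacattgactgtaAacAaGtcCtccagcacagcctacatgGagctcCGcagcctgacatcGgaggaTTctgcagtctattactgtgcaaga
IGHV1-39: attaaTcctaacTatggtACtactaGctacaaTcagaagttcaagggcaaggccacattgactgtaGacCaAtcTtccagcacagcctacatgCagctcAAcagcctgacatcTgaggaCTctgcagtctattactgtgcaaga

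IGHV1-18 and IGHV1-22 differed at 6 of these 144 positions (95.8% identical), and IGHV1-39 stood further apart, with 12 differences from IGHV1-18 and 14 from IGHV1-22. Among the 77 V genes with such a window, the nearest to each of the 3 was IGHV1-26, the most used V gene of the spleen. It differed from IGHV1-18 at 2 positions, from IGHV1-22 at 4 and from IGHV1-39 at 10. With positions counted from 1 at the start of the window and the base of the named gene written first, the differences from IGHV1-26 were T26G and A121T for IGHV1-18, and C6T, A67G, G114T and T120C for IGHV1-22. A mutation at such a position makes a sequence of 1 gene more like the other, so assignments of mutated sequences to IGHV1-18, IGHV1-22 and IGHV1-26 are less certain than those of unmutated ones.

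Skin libraries were small. A skin replicate held 275 to 350 clonotypes and 4976 to 7495 copies (the deposited count per sequence), against 25645 to 438995 clonotypes in a spleen replicate, 27520 to 117561 in a lymph node replicate and 386982 in the control. A single clonotype is thus 0.286% to 0.364% of a skin replicate, and the exact (Clopper-Pearson) 95% intervals below cover counting error only. No library lists more than 0.0485% of its distinct sequences under several constant genes. Among sequences with 10 or more copies in both technical libraries, the libraries gave different constant genes for 6.13% to 16.9% in spleen, 7.66% to 9.23% in lymph node and 31.7% in the control, and for 0 of 7, 0 of 7, 1 of 13 and 1 of 10 such sequences in skin. Over all sequences found in both libraries the figures were 5.44% to 12.6% for spleen, 14.5% to 21.8% for lymph node, 26.1% for the control and 0% to 7.14% for skin (9 to 15 sequences a replicate). Isotype is therefore given here as the call of each library and is less firm than the V gene.

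IGHV1-18 took 2.29%, 1.25%, 3.42% and 1.09% of clonotypes in skin replicates 1 to 4, that is 8 of 350, 4 of 320, 11 of 322 and 3 of 275. In spleen it took 2.77%, 2.35%, 2.40% and 2.33%, in lymph node 3.95%, 3.39%, 4.58% and 4.10%, and in the control 1.57%. Its order of means was skin at 2.01% ± 1.08 (SD, n = 4), spleen at 2.46% ± 0.208 and lymph node at 4.01% ± 0.490. Skin overlapped both other tissues, since skin replicate 3 lay above every spleen value and within the range of lymph node, while all 4 spleen values lay below all 4 lymph node values. In lymph node IGHV1-18 was the 2nd most used V gene in 3 of 4 replicates and the 4th in replicate 2.

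IGHV1-22 took 1.14%, 2.50%, 1.55% and 0% of skin clonotypes. In skin replicate 4 it was 0 of 275, which allows a share of up to 1.09% by a floor of 3 clonotypes. Spleen held 2.64%, 2.41%, 2.53% and 2.84%, and lymph node 2.21%, 2.09%, 2.20% and 2.42%. Skin averaged 1.30% ± 1.04 (n = 4), lymph node 2.23% ± 0.138 and spleen 2.60% ± 0.183. Skin replicate 2 lay inside the spleen range and above every lymph node value, so the tissues overlapped, and spleen and lymph node overlapped as well. No sequence in the control was assigned to IGHV1-22, 0 of 386982 clonotypes, which allows a share of up to 0.000775%.

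IGHV1-39 was the rarest of the 3. It took 0.286%, 0.312%, 0.932% and 0.364% of skin clonotypes, which are 1, 1, 3 and 1 clonotypes. Spleen held 0.565%, 0.398%, 0.600% and 0.511%, lymph node 1.46%, 1.39%, 1.47% and 1.60%, and the control 0.238%. Skin at 0.473% ± 0.307 (n = 4) and spleen at 0.519% ± 0.0882 overlapped, and both lay wholly below lymph node at 1.48% ± 0.0900.

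**Figure D1:**
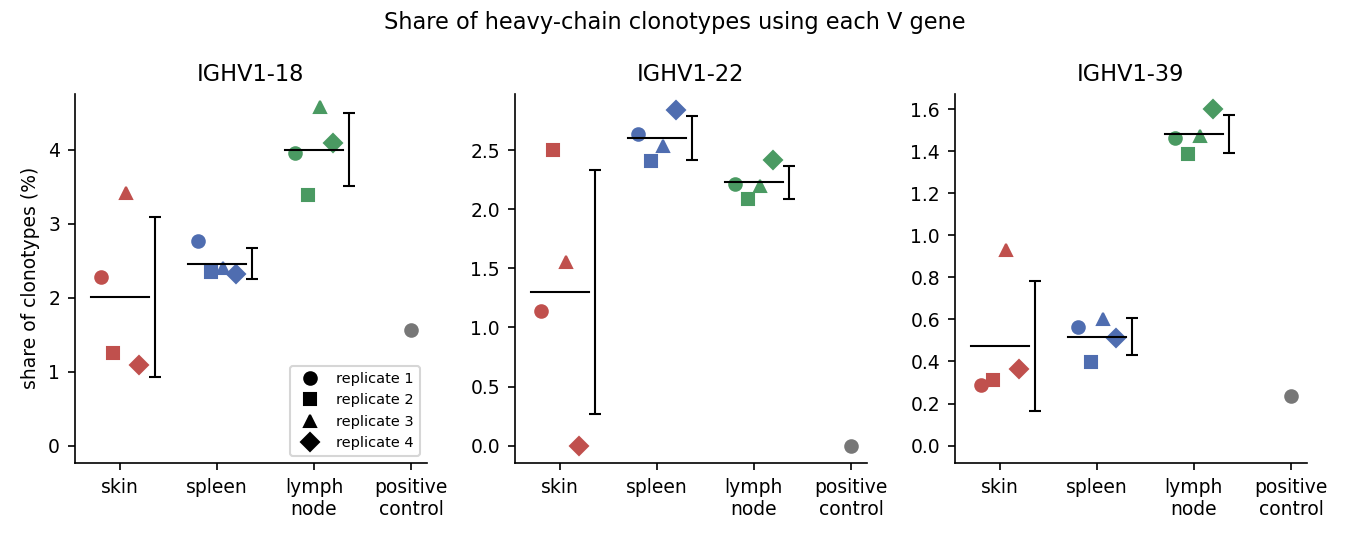
Share of all heavy-chain clonotypes (%, vertical axis) that used IGHV1-18, IGHV1-22 or IGHV1-39 in skin, spleen, lymph node and the positive control; each symbol is a biological replicate, horizontal lines are means and the bars beside them 1 SD (n = 4; the control is 1 sample). Skin values scatter from 1.09% to 3.42% for IGHV1-18 and from 0% to 2.50% for IGHV1-22, while IGHV1-39 lies below 1% in skin and spleen and between 1.39% and 1.60% in lymph node.

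The label "low in skin" therefore held in part. None of the 3 genes had every skin replicate below every spleen replicate, an outcome met by 17.6% of the 91 V genes tested, and only IGHV1-39 had every skin replicate below every lymph node replicate, which 18.7% of V genes did. These contrasts chose the genes, so nothing is read from those shares and no test is given. In the fit of clonotype numbers over all 12 replicates (edgeR), the log2 fold of skin over spleen was -0.40 for IGHV1-18, -1.07 for IGHV1-22 and -0.25 for IGHV1-39, beside a median of -0.28 over all V genes. Against lymph node it was -1.08, -0.83 and -1.74, beside a median of -0.19. From the lowest fold of skin over lymph node, IGHV1-39 ranked 14 of 91, IGHV1-18 ranked 23 and IGHV1-22 ranked 33. The 9 other tested genes numbered from IGHV1-15 to IGHV1-43 had a median log2 fold of 0.19 for skin over spleen, with 3 of 9 below 0.

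All skin clonotypes of the 3 genes can be accounted for. The 26 of IGHV1-18 fell into 15 lineages (1 V gene, 1 J gene and 1 CDR3 length, joined by single linkage where CDR3 nucleotides were at least 85% identical) and held 548 copies. By isotype, 13 were IgM, 11 IgA and 2 IgD. The 17 of IGHV1-22 formed 10 lineages with 153 copies, and 14 were IgM, 2 IgA and 1 IgD. The 6 of IGHV1-39 formed 5 lineages with 30 copies, all of them IgM. Single-copy clonotypes numbered 15, 6 and 2, and 2 clonotypes of IGHV1-18 but none of the other genes were found in both technical libraries of a replicate. At least 1 sequence without a V mismatch was present in 11 of 26, 11 of 17 and 6 of 6 clonotypes.

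The skin copies of IGHV1-18 rested on 2 IgA clonotypes, shown here because they are the 2 that both technical libraries of a replicate held. The second was chosen after its values were seen. Capitals mark the CDR3, and the lower-case codons at the ends are the conserved ones that frame it.
Skin replicate 1, IGHV1-18 with IGHJ4: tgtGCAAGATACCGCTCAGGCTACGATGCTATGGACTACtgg
Skin replicate 2, IGHV1-18 with IGHJ2: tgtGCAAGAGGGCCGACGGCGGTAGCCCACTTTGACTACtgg

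The first held 219 IgA copies (161 and 58 in the 2 technical libraries), 4.09% of all copies of that replicate, with a V mismatch level of 0.00317%. The second held 171 IgA copies (40 and 131), 2.28% of its replicate, and 9.73% of its aligned V nucleotides were mismatched. The largest clonotype of the gene was thus close to germline in skin replicate 1 and the most mutated of all its skin clonotypes in skin replicate 2. By copies IGHV1-18 reached 5.23%, 2.50%, 1.09% and 0.479% of skin replicates 1 to 4, where spleen ranged from 1.53% to 2.77% and lymph node from 3.09% to 6.88%. Without its largest clonotype the gene held 1.14% of copies in skin replicate 1 and 0.213% in skin replicate 2. The largest skin clonotypes of IGHV1-22 held 24, 21 and 15 copies, and those of IGHV1-39 held 7, 1, 9 and 7 copies, each in 1 technical library only.

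Split by isotype, the skin values of IGHV1-18 went apart. Within IgM it took 1.28%, 1.15%, 3.14% and 1.38% of skin clonotypes, against 2.43% ± 0.160 (n = 4) in spleen and 3.98% ± 0.340 in lymph node. Within IgA it took 8.00%, 2.06%, 4.71% and 1.09% in skin, that is 4 of 50, 2 of 97, 4 of 85 and 1 of 92 clonotypes, against 2.15% ± 0.325 in spleen and 3.55% ± 0.654 in lymph node. Skin IgA values thus lay on both sides of the spleen and lymph node ranges, and their mean of 3.96% ± 3.09 was above that of spleen. The exact 95% interval of the highest, 2.22% to 19.2%, shows how little the 50 IgA clonotypes of skin replicate 1 fix.

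IGHV1-22 took 1.70%, 3.45%, 2.09% and 0% of skin IgM clonotypes, against 2.77% ± 0.274 in spleen and 2.30% ± 0.141 in lymph node (n = 4). Within skin IgA it was found in replicate 2 alone, as 2 of 97 clonotypes. IGHV1-39 took 0.426%, 0.575%, 1.57% and 0.690% of skin IgM clonotypes, against 0.498% ± 0.115 in spleen and 1.41% ± 0.0726 in lymph node. Skin replicate 3 thus reached the lymph node level within IgM, and the wholly lower values of skin held for all isotypes together but not within IgM. IGHV1-39 was found in 0 of 324 skin IgA clonotypes; each replicate held 50 to 97 of them, and the smallest allows a share of up to 6%.

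**Figure D2:**
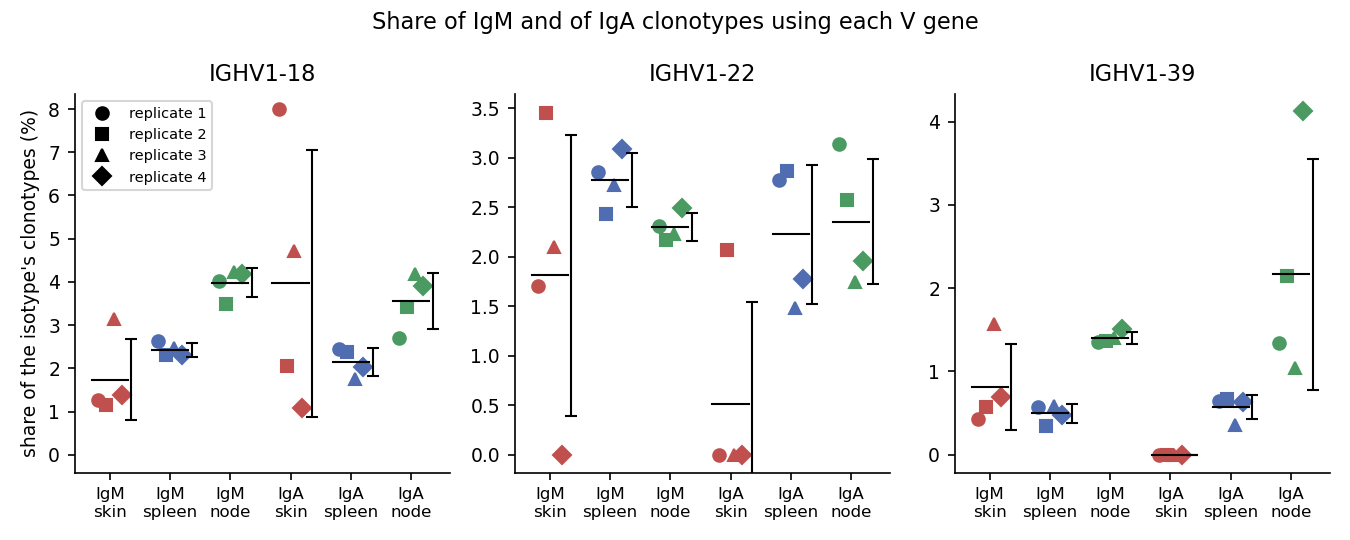
Share (%, vertical axis) of IgM clonotypes and of IgA clonotypes that used each gene in skin, spleen and lymph node; symbols are biological replicates, lines are means and bars 1 SD (n = 4; panels differ in scale, and the bar of IGHV1-22 in skin IgA runs below the axis). IGHV1-18 spreads from 1.09% to 8.00% of skin IgA clonotypes, while IGHV1-39 is at 0 in skin IgA in all 4 replicates.

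In the main fit, spleen and lymph node differed for 2 of the 3 genes, and which genes passed depended on the setting. The clonotype share of IGHV1-18 was lower in spleen by 0.68 on the log2 scale (-0.68 ± 0.21 SE; adjusted p = 0.0359, quasi-likelihood test in edgeR, Benjamini-Hochberg over 91 V genes, n = 4 against 4), and every spleen replicate lay below every lymph node replicate. IGHV1-39 was lower by more (-1.50 ± 0.25 SE, adjusted p = 0.000857, same test), again with no overlap. IGHV1-22 did not pass the test, with 0.24 ± 0.27 SE and an adjusted p of 0.560. In this comparison 22.0% of V genes passed, 14.3% lower and 7.69% higher in spleen, and 23.1% had every spleen value below every lymph node value and 16.5% above. Since skin was set against these same lymph node and spleen values when the genes were chosen, the result is not independent of that choice.

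The call for IGHV1-18 was lost in 10 of 18 alternative settings, with log2 folds from -0.998 to -0.306. They include the fit with the replicate number as a block, whose value is given in the last section. They also include leaving out spleen replicate 3 (adjusted p = 0.104) or 4 (0.579), or lymph node replicate 1 (0.204), 2 (0.213), 3 (0.138) or 4 (0.122), all by edgeR's test. For IGHV1-39 it was lost in 1 of 18, the fit on copies (adjusted p = 0.609), with log2 folds from -1.64 to -1.13. Among the 9 neighbouring genes from IGHV1-15 to IGHV1-43, none passed edgeR's test; 2 had an unadjusted p under 0.05, and DESeq2 called those same 2, IGHV1-15 and IGHV1-19. Their log2 folds ran from -0.93 to 0.59 with a median of -0.19, so IGHV1-39 lay below all of them and IGHV1-18 within their range.

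**Figure D3:**
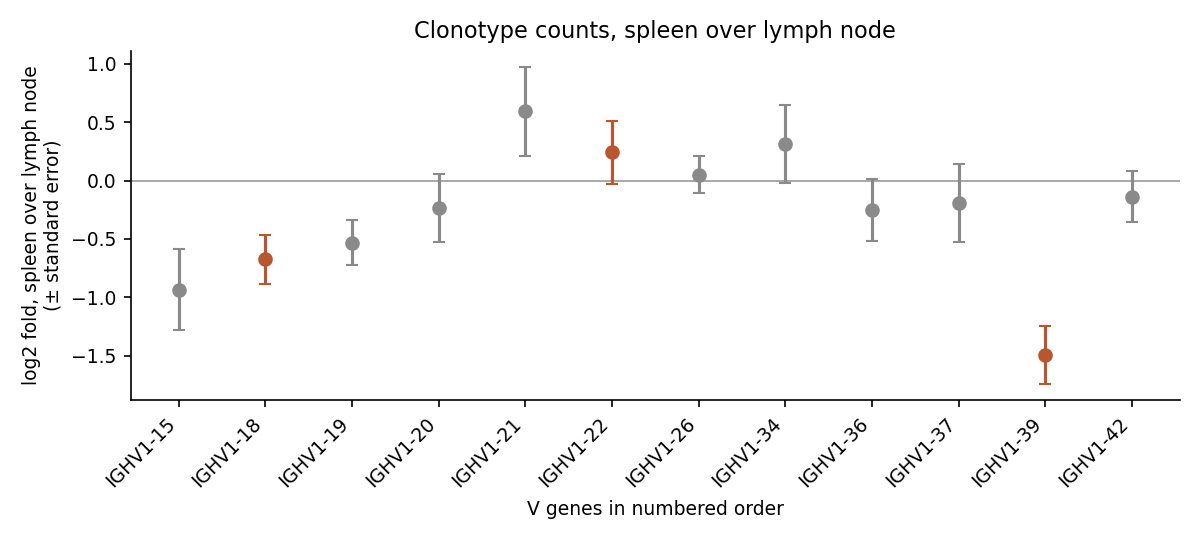
Log2 fold of clonotype counts, spleen over lymph node (vertical axis, ± 1 standard error from edgeR), for the tested IGHV1 genes numbered 15 to 42, in numbered order; the 3 genes described are in orange and the 9 others in grey. IGHV1-39 is the lowest at -1.50, IGHV1-18 is at -0.68 and IGHV1-22 at 0.24.

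The V genes with the most similar levels across the 12 tissue replicates were named for each of the 3. By Pearson correlation of normalised log2 clonotype counts, the closest V genes to IGHV1-18 were IGHV1-39 (r = 0.870), IGHV8-5 (0.806) and IGHV2-2 (0.793). For IGHV1-39 they were IGHV1-18 (0.870), IGHV1-9 (0.857) and IGHV3-1 (0.783). For IGHV1-22 they were IGHV1-78 (0.971), IGHV14-3 (0.967) and IGHV5-9 (0.960), and its correlation with IGHV1-18 was 0.603 and with IGHV1-39 0.321. These values describe 12 replicates of 3 tissues that share their libraries and include the skin values that chose the genes, so nothing is drawn from them. A high correlation did not mean a like order of spleen and lymph node: IGHV1-78 averaged 0.550% of clonotypes in spleen and 0.979% in lymph node, the reverse of IGHV1-22.

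Within spleen, a contrast of class-switched IgA with IgM in the same replicates moved none of the 3 shares past the threshold in the main fit. The log2 folds of IgA over IgM clonotypes were -0.10 ± 0.23 SE for IGHV1-18, -0.29 ± 0.24 for IGHV1-22 and 0.30 ± 0.38 for IGHV1-39 (adjusted p = 0.761, 0.379 and 0.546, edgeR with the replicate as a block, n = 4). In that comparison 33.7% of 86 V genes passed, 16.3% higher and 17.4% lower in IgA. IGHV1-39 passed in 1 of 10 alternatives, clonotypes of 2 or more copies (1.67, adjusted p = 0.00373, edgeR). IGHV1-22 also passed in 1 of 10, on lineages (adjusted p = 0.0487, edgeR), and IGHV1-18 in none. The copies told more than the clonotype numbers. In spleen replicate 2 the largest IGHV1-22 clonotype alone held 6988 copies, all IgA. Its lineage held 424 clonotypes and 19396 copies over all isotypes, and 244 clonotypes with 18874 copies within IgA.

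That lineage belongs to a type of junction that recurred in the IgA of all 4 spleens, IGHV1-22 joined to IGHJ2 with a CDR3 of 27 nucleotides, or 9 codons. It was singled out after its values were seen. The largest such IgA junction of each spleen is shown to let the shared 3′ part be read, with the CDR3 in capitals.
Spleen replicate 1: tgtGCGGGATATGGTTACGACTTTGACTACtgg
Spleen replicate 2: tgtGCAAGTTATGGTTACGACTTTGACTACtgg
Spleen replicate 3: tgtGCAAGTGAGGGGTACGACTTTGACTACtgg
Spleen replicate 4: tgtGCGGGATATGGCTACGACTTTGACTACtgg

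These held 195, 6988, 381 and 462 copies, with 7.64%, 10.9%, 1.99% and 4.58% of V nucleotides mismatched. Junctions of this type made up 27.4%, 28.0%, 16.8% and 17.4% of the IgA clonotypes of IGHV1-22 in spleens 1 to 4, and 4.62%, 4.13%, 4.31% and 4.39% of its IgM clonotypes. Every IgA value lay above every IgM value, which held for 1.66% of the 2839 combinations of V gene, J gene and CDR3 length in the 42 V genes with at least 20 IgA and 20 IgM clonotypes in each spleen. By the difference of the means, 18.0 percentage points, it ranked 3 among the 2839. IGHV1-22 was the only 1 of those 42 genes for which IGHJ2 with 27 nucleotides had every IgA value above every IgM value (2.38%). The type was picked on these same values, so its rank and these shares are descriptions only. A combination absent from the IgA of any spleen could not have every IgA value higher, which lowers the shares of 1.66% and 2.38%. In all other V genes together the same J gene and length made up 1.71% to 4.68% of spleen IgA clonotypes. Most IGHV1-22 IgA clonotypes of this type belonged to 1 lineage per spleen, 25 of 26, 244 of 269, 23 of 29 and 49 of 54. Their clonotype share thus counts the members of 1 lineage separately, and a share by lineages was not computed.

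By copies the type held 41.4%, 70.9%, 37.7% and 31.0% of IGHV1-22 IgA copies, and 1.25%, 4.55%, 0.472% and 0.464% of all IgA copies of spleens 1 to 4. Its IgA clonotypes carried 6.69%, 6.83%, 2.91% and 4.26% mismatched V nucleotides, against 1.25%, 1.29%, 0.398% and 0.351% for its IgM clonotypes in the same spleens. The longest run of letters that the 4 CDR3s above share, TACGACTTTGACTAC, was searched in the coding direction of each junction and not on the other strand. It was present in 7 of 26, 38 of 269, 12 of 29 and 14 of 54 of the IgA clonotypes of this type. Among all IGHV1-22 clonotypes of spleen it was in 3.95% to 7.37% of IgA and in 0% to 0.418% of IgM, where the 0 is of 455 clonotypes and allows up to 0.659%. In the IgA clonotypes of all other V genes it was in 0.0900% to 0.818%. Because the run was read from IgA junctions of IGHV1-22 in these same spleens, which with their relatives are among the clonotypes counted, a higher share in IgA of that gene was built in and is a description only. The last of these letters lie in the part that IGHJ2 encodes, so their presence beside IGHJ2 is in part given.

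The junctions themselves were mostly private to a spleen. Of 374 distinct IgA junctions of this type, 370 were found in 1 spleen and 4 in 2 spleens. Those 4 were shared by spleens 1 and 4, and the largest junction of spleen 1 was among them. Lymph node IgA held few IGHV1-22 clonotypes, and the type made up 3 of 7 in replicate 1, 7 of 12 in replicate 2, 0 of 5 in replicate 3 and 0 of 9 in replicate 4. All 3 of the junctions in lymph node 1 and 5 of the 7 in lymph node 2 were also found in a spleen, and the largest of both was the 6988-copy junction of spleen replicate 2, with 22 and 107 copies. Whether sequences passed between libraries was not tested. Skin IgA held only 2 IGHV1-22 clonotypes, both in replicate 2, and neither was of this type.

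**Figure D4:**
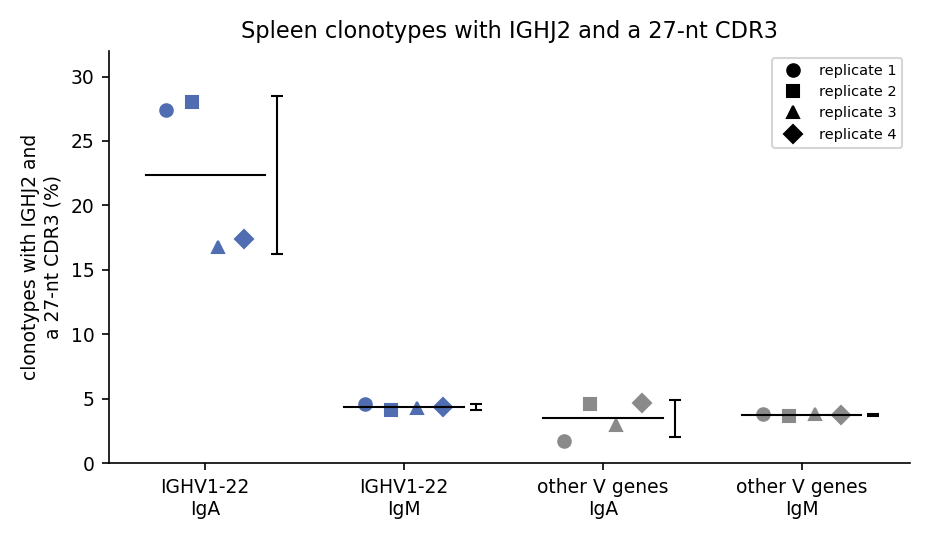
Share (%, vertical axis) of spleen clonotypes with IGHJ2 and a 27-nucleotide CDR3, among IgA and IgM clonotypes of IGHV1-22 (blue) and of all other V genes (grey); symbols are the 4 spleen replicates, lines are means and bars 1 SD. IGHV1-22 IgA runs from 16.8% to 28.0%, mostly from 1 lineage per spleen, and the other 3 sets stay below 5%.

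IGHV1-18 showed its largest class-switched expansion in lymph node. There it took 2.54%, 3.47%, 29.2% and 8.62% of IgG2 clonotypes in replicates 1 to 4, against 1.80% to 4.43% in spleen. In lymph node replicate 3 these were 267 of 914 IgG2 clonotypes, and 239 of the 267 belonged to 1 lineage with IGHJ2, a CDR3 of 36 nucleotides, 3931 of 13271 IgG2 copies and a mean V mismatch level of 3.97%. In the same replicate IGHV1-18 took 12.6% of IgG1 and 26.8% of IgG3 clonotypes (15 of 119 and 11 of 41). Counted by lineages, IGHV1-18 took 2.59%, 3.57%, 5.06% and 5.13% of lymph node IgG2 in replicates 1 to 4, and 2.05% to 3.83% of spleen IgG2. Lymph node replicate 4 was thus as high as replicate 3 by lineages, and its clonotype share of 8.62% (113 of 1311) also lay above all spleen values. The largest single IGHV1-18 clonotype, in lymph node replicate 4, shows the limit of the isotype calls. Of its 3927 copies, all 1970 of technical library 1 were listed as IgG2 and all 1957 of library 2 as IgM.

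IGHV1-22 and IGHV1-39 had large lymph node clones as well. In lymph node replicate 2 an IGHV1-22 clonotype with IGHJ1 held 2994 copies, 40.1% of the gene's copies there and 1.31% of the replicate, with 3.31% of V nucleotides mismatched. It belonged to an IgG2 lineage of 62 among 88 IgG2 clonotypes of the gene. The largest clonotypes of IGHV1-39 are shown because each is the largest of the gene in its tissue found in both technical libraries, and they differ in mutation.
Spleen replicate 2, IGHV1-39 with IGHJ2: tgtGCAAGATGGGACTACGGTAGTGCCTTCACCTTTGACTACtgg
Lymph node replicate 3, IGHV1-39 with IGHJ3: tgtGCAAGATGGCCAGAGGCTTACtgg

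The spleen clonotype had 349 copies, 297 of them IgA, and 9.52% mismatched V nucleotides, and it made up 9.23% of IGHV1-39 copies in its replicate. The lymph node clonotype had 770 copies, 537 of them IgM, and 0.392% mismatched, and it made up 41.9% of IGHV1-39 copies in its replicate. In skin the 6 IGHV1-39 clonotypes carried 0.0612% ± 0.0941 mismatches (4 replicates).

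The mean V mismatch level per clonotype did not pass the test between spleen and lymph node for any of the 3. IGHV1-18 had 0.858% ± 0.214 in spleen and 0.857% ± 0.290 in lymph node, IGHV1-22 had 0.712% ± 0.352 and 0.434% ± 0.101, and IGHV1-39 had 0.651% ± 0.317 and 0.361% ± 0.0608 (SD, n = 4 each). None passed limma's test (adjusted p = 0.996, 0.315 and 0.258), and 1.30% of the 77 V genes tested did. For IGHV1-18 the lymph node value includes replicate 3 at 1.29%, the replicate with the mutated IgG2 lineage, beside 0.670% to 0.750% in the others. By isotype, spleen IgA clonotypes carried 3.08% ± 0.162 (IGHV1-18), 2.95% ± 0.892 (IGHV1-22) and 2.50% ± 0.694 (IGHV1-39) mismatches, and spleen IgM clonotypes 0.624% ± 0.121, 0.489% ± 0.214 and 0.440% ± 0.207. Over all V genes the same means were 3.17% ± 0.180 for IgA and 0.587% ± 0.0941 for IgM. In skin the IgA clonotypes of IGHV1-18 ranged from 0% to 9.72% between replicates.

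CDR3 lengths were shorter in spleen for IGHV1-22. They averaged 35.3 ± 0.210 nucleotides in spleen and 36.5 ± 0.171 in lymph node, a difference of -1.21 ± 0.209 SE (adjusted p = 0.00469, limma, n = 4 against 4). The difference kept its direction and its call in 13 of 13 alternatives, the fit on IgM clonotypes included. Among all V genes 36.4% were called shorter in spleen and the median difference was -0.778, so a shorter CDR3 was common. IGHV1-18 (37.2 ± 0.208 and 37.6 ± 0.0922, adjusted p = 0.160) and IGHV1-39 (36.7 ± 0.296 and 36.9 ± 0.227, adjusted p = 0.533) did not pass the same limma test. In skin the means were 39.9 ± 3.49 for IGHV1-18 (n = 4), 27.4 ± 5.84 for IGHV1-22 (n = 3) and 35.8 ± 0.500 for IGHV1-39 (n = 4), on 26, 17 and 6 clonotypes.

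Among the J genes, the IGHJ3 share passed the test between spleen and lymph node for all 3 V genes. IGHJ3 was paired with 14.9% ± 3.92 of IGHV1-18 clonotypes in spleen and 7.76% ± 0.684 in lymph node, with 13.4% ± 1.63 and 7.44% ± 0.608 for IGHV1-22, and with 14.8% ± 3.32 and 7.94% ± 1.04 for IGHV1-39. The rises of 7.14, 5.96 and 6.89 percentage points passed limma's test (adjusted p = 0.0230, 0.0165 and 0.0228 over 308 V-J pairs), and every spleen value lay above every lymph node value for each gene. How many V genes had no such overlap was not counted. The mean IGHJ3 share was higher in spleen for 76 of 77 V genes, so nothing particular to the 3 is read from it. IGHJ4 fell by 6.98 points for IGHV1-22, from 37.3% ± 1.94 in lymph node to 30.4% ± 1.04 in spleen, and by 7.36 points for IGHV1-39, from 40.3% ± 2.52 to 33.0% ± 1.67 (adjusted p = 0.0165 for both, limma). For IGHV1-18 the IGHJ4 difference was -6.89 ± 2.63 SE with an adjusted p of 0.0757, and it passed in 3 of 12 alternatives (lowest adjusted p 0.0378, limma). IGHJ1 and IGHJ2 passed for none of the 3, and the sign of their differences varied between the genes; IGHJ1 of IGHV1-18 came nearest, 3.21 points higher in spleen with an adjusted p of 0.0951 (limma). Of all 308 V-J pairs 31.2% passed, and among the 77 V genes IGHJ1 was called higher in spleen for 6.49% and IGHJ2 lower for 1.30%. The IGHJ3 and IGHJ4 shifts were common to many V genes, since the IGHJ3 share was called higher in spleen for 50.6% of 77 V genes and the IGHJ4 share lower for 66.2%. The IGHJ3 calls of IGHV1-18 and of IGHV1-39 were each lost in 4 of 12 alternatives, without spleen replicate 4 or lymph node replicate 1, 3 or 4 (adjusted p = 0.0502 to 0.0592, limma), at differences of 6.48 to 7.39 points. Those of IGHV1-22 were kept in 12 of 12.

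**Figure D5:**
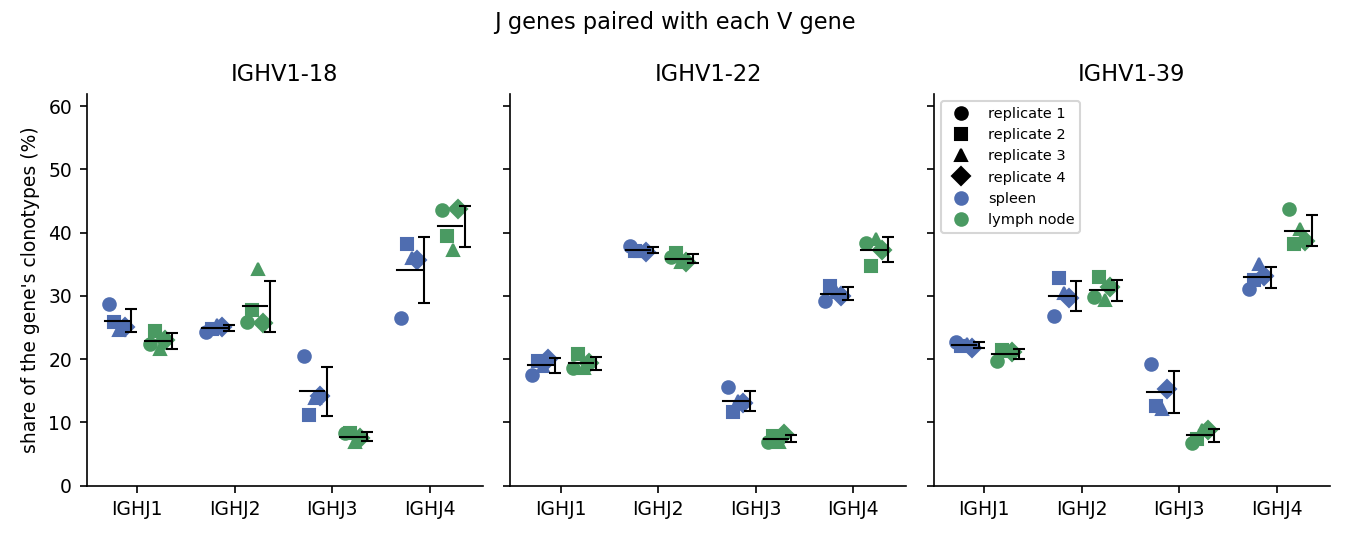
Share (%, vertical axis) of the clonotypes of each V gene joined to IGHJ1, IGHJ2, IGHJ3 or IGHJ4, in spleen (blue) and lymph node (green); symbols are biological replicates, lines are means and bars 1 SD (n = 4). Over the 3 genes, IGHJ3 lies at 11.2% to 20.4% in the spleen replicates, above the 6.72% to 8.85% of the lymph node replicates. The mean IGHJ3 share was higher in spleen for 76 of 77 V genes.

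Within spleen, IGHJ3 was also more frequent in IgA than in IgM. It was joined to 28.1% ± 9.46 of IgA and 13.2% ± 2.88 of IgM clonotypes of IGHV1-18, to 22.2% ± 4.99 and 11.9% ± 1.47 for IGHV1-22, and to 38.2% ± 8.76 and 12.0% ± 2.41 for IGHV1-39 (n = 4). Over all V genes the values were 28.5% ± 5.15 and 11.7% ± 1.36. The IgA and IgM ranges did not overlap for any of the 3 genes, nor over all V genes together (23.5% to 34.1% in IgA, 9.73% to 12.8% in IgM). How many single V genes had no overlap was not counted, and no test of these values was made. In skin 15 of 26 IGHV1-18 clonotypes used IGHJ4, IGHV1-22 was spread over IGHJ2 (6 of 17), IGHJ4 (5), IGHJ1 (3) and IGHJ3 (3), and 4 of 6 IGHV1-39 clonotypes used IGHJ1.

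Identical clonotypes were found in more than 1 tissue. For IGHV1-18, lymph node and spleen replicates of the same number shared 5, 139, 39 and 99 clonotypes, against 0 to 51 for the 12 pairs of different numbers. For IGHV1-22 the counts were 3, 135, 44 and 111 against 2 to 24, and for IGHV1-39 they were 1, 29, 12 and 22 against 0 to 6. Larger replicates had more clonotypes to share, so some counts are set beside the sizes here. Lymph node 4 shared 99 IGHV1-18 clonotypes with the 7092 of spleen 4 and 51 with the 10296 of spleen 2. Lymph node 3 shared 39 with the 5373 of spleen 3 and 31 with those of spleen 2. Lymph node 1 shared 5 with the 710 of spleen 1 and 19 with those of spleen 2. For IGHV1-22, lymph node 3 shared 44 with the 5671 of spleen 3 and 13 with the 10567 of spleen 2. Lymph node 4 shared 111 with the 8652 of spleen 4 and 24 with those of spleen 2. For all 3 genes, lymph nodes 2, 3 and 4 shared most with the spleen of their own number. Lymph node 1 shared most with spleen 2, the largest. The labels do not say that equal numbers mark the same animal, and whether they do was not tested. The same-number clonotypes were 2.47% of the lymph node and 1.20% of the spleen clonotypes of IGHV1-18, 4.48% and 1.15% for IGHV1-22, and 1.47% and 1.34% for IGHV1-39. Skin shared 2 of its 26 IGHV1-18 clonotypes and 2 of its 17 IGHV1-22 clonotypes with the spleen of the same number, none of the 6 of IGHV1-39, and none of any of the 3 with the lymph node of the same number. Over the 12 pairs of different numbers, skin and spleen shared 1 clonotype of IGHV1-18 and 2 of IGHV1-22, and skin and lymph node shared 1 of IGHV1-22.

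The germline sequences bear on what a mismatch means. Among distinct IgM sequences, 54.9% to 67.8% of IGHV1-18, 60.2% to 69.2% of IGHV1-22 and 63.5% to 76.0% of IGHV1-39 carried no V mismatch in the spleen replicates. The lymph node ranges were 52.6% to 57.5%, 59.5% to 63.7% and 69.5% to 77.3%. The most recurrent IgM mismatch of IGHV1-18 was A121T, the base of IGHV1-26 at that position, in 7.46% to 10.0% of the sequences per spleen and 10.9% to 16.2% per lymph node. For IGHV1-22 it was C6T, again the base of IGHV1-26, in 6.97% to 10.6% and 7.82% to 11.9%. Neither base is particular to IGHV1-26. Of the other V genes with a window, 48 hold the T at position 121 and 60 hold the T at position 6, IGHV1-26 among them both times. For IGHV1-39 no mismatch exceeded 4.12% when replicates were pooled. Whether the recurrent mismatches are mutations or misassigned sequences was not tested. With those sequences left out, a setting chosen with the data in view, the fold of IGHV1-18 was -0.61 with an adjusted p of 0.0655 (edgeR).

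The control is described for its mismatches. None of its 368 distinct IgM sequences of IGHV1-39 was free of mismatches, and C70A, A35T, C20G, A10T and C105T were each in 95.9% to 100% of them; 74.7% carried exactly 5 mismatches. Of the 3758 IgM sequences of IGHV1-18 in the control, 25.1% had no mismatch and the median was 5, against medians of 0 in every spleen and lymph node replicate. Over all V genes with at least 200 IgM sequences, 19 of 96 in the control had no unmutated sequence, against 3 of 92 in spleen and lymph node together. The control's IGHV1-39 values were thus measured against a germline sequence from which nearly all these IgM sequences differ at the same positions. For IGHV1-18 the most recurrent mismatch, T26G, was in 35.7% of the control's IgM sequences. The control held no IGHV1-22 sequence in which to see mismatches. The cause of that absence and of the shared mismatches was not tested. No test between the control and the tissues was made.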

How the data were processed

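The authors deposited 1 file per library, with a row for every different heavy-chain read sequence. A row holds its gene assignments and junction. The authors deposited with it an unnormalised whole-number count (here called copies) and other values, such as V mismatches and aligned V length. Per the labels' protocols, primers carried a 10-nucleotide molecular identifier; the alignment program, and whether counts are of reads or of identifiers, are not given in the sources used here. Library totals were 2215 to 4183 copies in skin, 79235 to 683759 in spleen, 44772 to 117512 in lymph node and 318201 to 327365 in the control.

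Technical libraries were summed. V gene clonotype numbers were tested with edgeR 4.0.16 (R 4.3.3; TMM, low-count filter, all 12 tissue replicates), with DESeq2 1.42.0 as an alternative, and per-gene means of mutation, CDR3 length and J share with limma 3.58.1, for V genes with at least 20 clonotypes in each replicate. An adjusted p under 0.05 was a call. Other values were computed with Python 3.11.15 and pandas 2.3.3. Correlations used edgeR's normalised log2 counts with a prior count of 2.

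The genes and lists were chosen with earlier results of these data known. Besides the 3 genes, the rule for naming took the 3 V genes most correlated with each and the largest clonotype of each gene and tissue found in both technical libraries; items outside it are said to be so or are neighbours by sequence.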

Additional observations from a re-analysis of the deposited data

Results flagged for a closer look

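Of 78 groups of 4 replicates examined, 11 held a replicate far from the other 3 by Dixon's criterion, and chance flags about 1 in 20. For IGHV1-18 these were lymph node replicate 3 with a V mismatch level of 1.29% (others 0.670% to 0.750%), spleen replicate 1 with 2.77% of clonotypes (others 2.33% to 2.40%), skin replicate 3 with 3.14% of IgM clonotypes (others 1.15% to 1.38%) and spleen replicate 1 with 4.43% of IgG2 clonotypes (others 1.80% to 2.24%). For IGHV1-22 they were lymph node replicate 2 with 0.585% mismatches (others 0.373% to 0.402%), spleen replicate 1 with a CDR3 of 35.6 nucleotides (others 35.1 to 35.2), skin replicate 2 with 2.06% of IgA clonotypes (others 0), spleen replicate 3 with 2.57% of IgG2 clonotypes (others 1.73% to 1.84%) and spleen replicate 1 with 37.9% of clonotypes on IGHJ2 (others 36.9% to 37.1%). For IGHV1-39 they were skin replicate 3 with 0.932% of clonotypes (others 0.286% to 0.364%) and spleen replicate 3 with 0.351% of IgA clonotypes (others 0.634% to 0.665%). Spleen replicate 1, which appears 4 times, was the smallest spleen replicate with 25645 clonotypes.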

How the results depend on the processing

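Across 24 tested results and 309 comparisons with an alternative setting, 270 kept direction and side of the threshold, 19 lost the call, 7 gained it and 13 changed sign. The 20 V genes called between spleen and lymph node (edgeR) became 38 with the 8 spleen and lymph node replicates alone, 11 with a replicate block, 13 without the recurrent mismatches, 33 by DESeq2, 0 on copies (5 at an unadjusted p under 0.05) and 6 to 31 when leaving out a replicate. The 29 called between spleen IgA and IgM became 5 with no replicate block, 46 on lineages and 4 to 38 without a replicate. For mutation (limma, 1 called) the counts were 0 in IgM (3 at an unadjusted p under 0.05), 0 with the replicate block (18), 8 for clonotypes of 2 or more copies and 0 to 5 without a replicate. For CDR3 length (28) they were 45 in IgM, 14 for clonotypes of 2 or more copies and 6 to 39 without a replicate. For J shares (96) they were 59 in IgM, 60 with the replicate block and 26 to 103 without a replicate. With the replicate block the IGHV1-18 spleen over lymph node fold was -0.68 with an adjusted p of 0.0829.

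Signs turned only for differences that were not called: IGHV1-18 IgA over IgM (log2 0.193 on lineages, -0.178 to 0.0327 without a replicate), IGHV1-18 mutation (-0.106 in IgM and -0.0683 to 0.145 without a replicate), IGHV1-22 with IGHJ1 (0.183 points in IgM, -0.629 to 0.210 without a replicate) and IGHV1-39 with IGHJ2 (0.338 in IgM, -1.86 to 0.117 without a replicate). IGHV1-22 between spleen and lymph node gained a call with the 8 replicates alone (0.38, adjusted p = 0.0431, edgeR) and by DESeq2 (0.27, adjusted p = 0.0473). The IGHV1-39 IgA over IgM fold gained one for clonotypes of 2 or more copies (1.67, adjusted p = 0.00373, edgeR), and the IGHV1-22 fold on lineages (-0.30, adjusted p = 0.0487, edgeR). The IGHJ4 difference of IGHV1-18 gained one in IgM (-5.83 points, adjusted p = 0.0378), for clonotypes of 2 or more copies (-7.53, 0.0406) and without spleen replicate 2 (-8.26, 0.0497), all by limma. The cause of these changes was not tested.

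Mean skin shares moved beyond 1 SD for IGHV1-18 in clonotypes of both technical libraries (3.35%), for IGHV1-22 there (0%) and for IGHV1-39 by copies (0.142%), in IgM (0.815%) and in both libraries (0%); without a skin replicate they ran from 1.54% to 2.32%, 0.899% to 1.73% and 0.321% to 0.536%. Same-numbered spleen and lymph node samples correlated at 0.256, 0.175, 0.00763 and -0.173 in their deviations over 91 V genes. Only 1 of 4 spleens correlated best with its own number, so the main fit did not use the pairing. Shared clonotypes gave another picture. For all 3 genes, lymph nodes 2, 3 and 4 shared most with the spleen of their own number, and lymph node 1 did not. The main fit may thus leave out a real pairing, and with the replicate block the IGHV1-18 call was lost and fewer V genes were called. Depth limits skin most: with 275 to 350 clonotypes per replicate, the exact 95% interval of the highest IGHV1-18 share ran from 1.72% to 6.03%.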
